A study of Mus musculus with 6 samples.

Results

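Mitosis and cytokinesis genes were followed in LSK cells, the lineage-negative, Sca1-positive and c-Kit-positive fraction of mouse bone marrow that holds hematopoietic stem and early progenitor cells. The group holds 49 genes, picked by symbol from the 54532 genes of the deposited table, and was divided by role into 13 genes of mitotic entry and exit, 24 genes of the spindle and kinetochore and 12 genes of cytokinesis. RNA-seq compared 3 libraries from Myh9fl/fl;Mx1-cre mice (cKO, *Myh9*-deficient) with 3 libraries from littermate Myh9fl/fl;no cre mice (CTRL, control), all on a C57BL/6 background. Both genotypes carried the floxed *Myh9* alleles and both received poly I:C at 5 mg/kg, in 2 doses per the sample labels and 3 per the study's methods, with the first injection at 5 to 6 weeks of age. LSK cells were sorted 4 days after that injection, 100000 for each set. *Mx1-cre* is switched on by interferon, which poly I:C induces, and is not limited to hematopoietic cells. Control mice carried no cre, so an effect of the recombinase itself cannot be told apart from that of *Myh9* loss. The number of mice behind each set is not stated, and the p-values below measure the spread between sets. *Myh9* fell from 23.0, 22.6 and 22.001 FPKM in control to 18.4, 19.96 and 17.7 FPKM in the cKO libraries (log2 fold change -0.26, SE 0.0487, adjusted p = 0.00642, limma). The mean changed by only -17.1%, in a gene-level value that also counts reads outside the floxed exon. The share of sorted cells that had lost *Myh9* was not tested here, and *Myh9*-deficient below names the cKO genotype.

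A cell enters mitosis when the kinase CDK1, bound to cyclins A and B, is freed of inhibitory phosphates by CDC25 phosphatases, with help from the Polo and Aurora kinases. Chromosomes then attach through kinetochores to a spindle built by kinesins and assembly factors, while a checkpoint holds back the anaphase-promoting complex (APC/C), the ubiquitin ligase that marks securin and cyclin B for destruction. In cytokinesis the central spindle recruits regulators of the GTPase RhoA, and a ring of actin and non-muscle myosin II closes between the daughter cells. *Myh9* encodes the heavy chain of non-muscle myosin IIA, a motor of that ring. Most of these genes are transcribed in waves that peak in G2 and M phase.

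In *Myh9*-deficient LSKs 15 of the 49 genes rose, 6 fell and 28 were not called. Genes of mitotic entry and exit gave 9 of the 15 rises, with 9 of 13 higher (69.2%, beside 19.9% of all genes tested) and 0 lower. Of 12 cytokinesis genes 3 fell and 1 rose, or 25% and 8.33%, where 20.6% of all genes tested fell and 19.9% rose. With trends in gene length and GC content removed, 2 cytokinesis genes were called each way. Cyclin B1, the securin *Pttg1*, the APC/C partner *Ube2c* and the centromeric histone *Cenpa* were among those that rose. The DNA topoisomerase *Top2a*, the centralspindlin subunit *Racgap1* and the spindle motor *Kif11* were among those that fell. All differences were small, from -0.36 (*Top2a*) to 0.50 (*Pttg1*) on the log2 scale, and 0 of the 49 passed 2-fold, a rule that with an unadjusted p under 0.05 called 2.13% of all genes tested.

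A gene was called at an adjusted p under 0.05 from limma on log2(FPKM + 1) with Benjamini-Hochberg adjustment over the 11552 genes whose mean reached 1 FPKM, a filter that all 49 genes passed. FPKM is a fragment number corrected for the length of the gene and the size of the library. By this rule 19.9% of all genes tested were higher and 20.6% lower, beside 30.6% and 12.2% of the 49. The median log2 fold change was 0.04 over the 49 and -0.01 over all genes tested. With *Myh9*-deficient and control values that did not overlap, 19 of the 49 lay above control and 8 below, where 25.5% and 28.5% of all genes did. The 49 genes together took 0.481% to 0.488% of the reads on genes in control libraries and 0.512% to 0.515% in *Myh9*-deficient libraries. Mean levels over the 6 libraries ran from 1.63 FPKM (*Cenpf*) to 309 FPKM (*Cks2*), and the median coefficient of variation between replicates was 3.29% in control and 3.99% in *Myh9*-deficient libraries. In bulk RNA, more cells in mitosis and more of these transcripts per cell cannot be told apart.

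**Figure D1:**
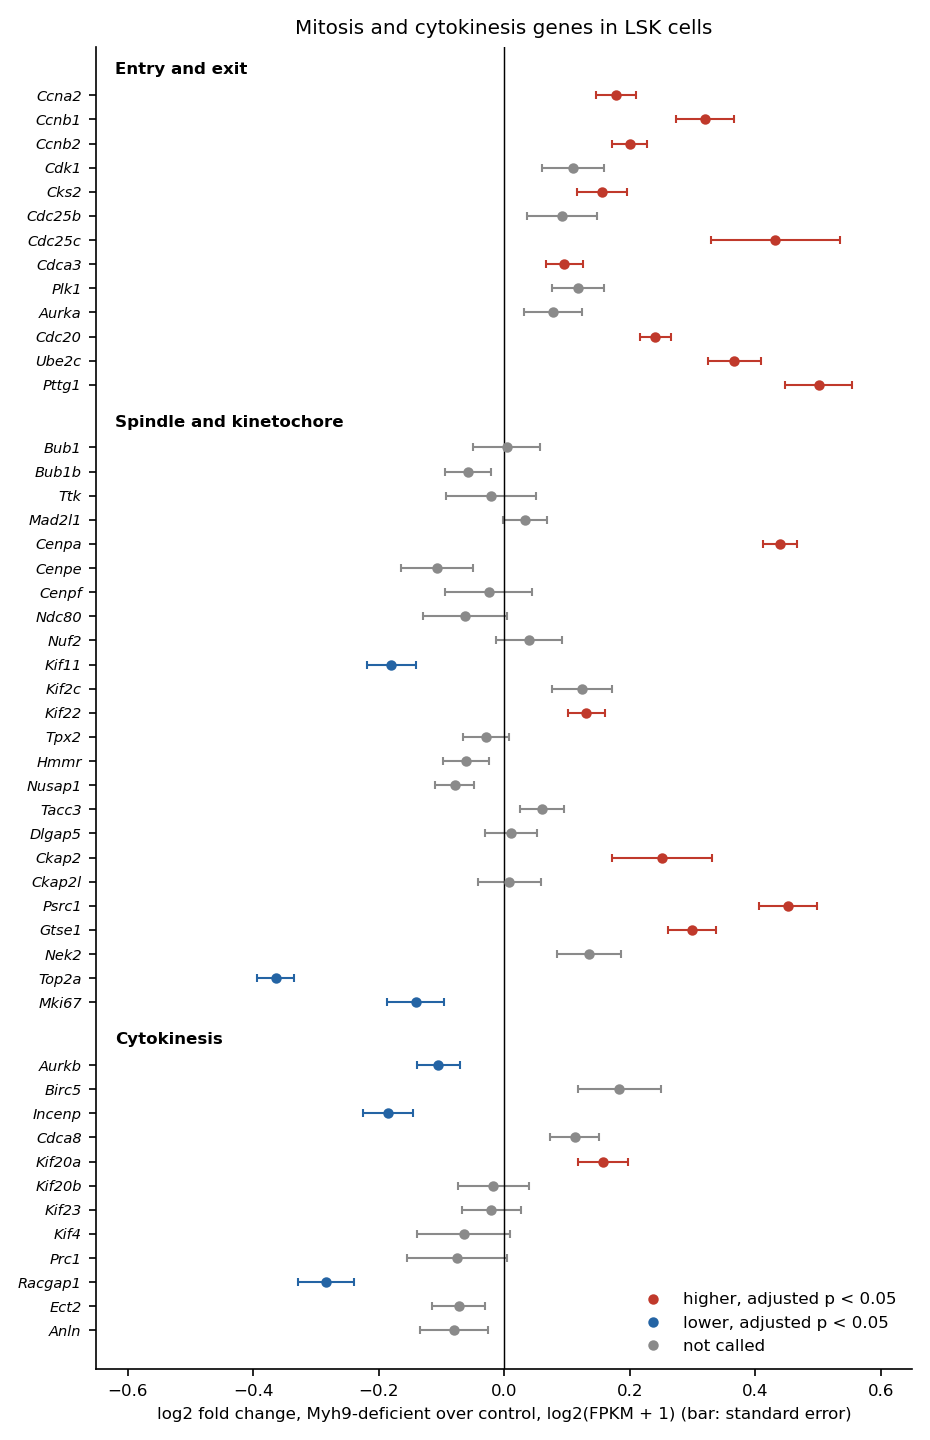
Log2 fold change of each of the 49 genes in *Myh9*-deficient over control LSKs (x axis, log2(FPKM + 1); bars are standard errors), by role, with genes called higher in red, called lower in blue and not called in grey. All 13 genes of entry and exit lie right of zero, and 9 of the 12 cytokinesis genes lie left of it.

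The libraries held 17571544 to 19894562 reads on genes, and 293 to 6808 reads lay behind each of the 49 genes in a library. Both genes of the sort were present, *Ly6a* (Sca1) at 95.4 ± 1.87 and 89.5 ± 3.63 FPKM and *Kit* at 23.9 ± 0.454 and 21.5 ± 0.334 FPKM, and of 8 LSK genes 3 rose and 1 fell. By the same rule 19.9% of all genes tested were higher and 20.6% lower. Levels in the list of granulocyte and monocyte genes spanned a wide range. *Mpo* stood at 3331 ± 32.1 FPKM in control libraries, against 1953 ± 17.0 FPKM in *Myh9*-deficient libraries. *Csf1r* stood at 25.6 and 8.70 FPKM and *Ltf* at 5.96 and 3.39 FPKM on average. Of 11 tested genes of that list 10 fell, from a sum of 10838 to 10870 FPKM in control to 6016 to 6120 FPKM. All 11 tested erythroid genes rose, from a list sum of 476 to 480.3 FPKM to 833 to 859 FPKM. *Car1* made up most of that sum, at 344 and 618 FPKM on average. The globin gene *Hbb-bt* rose from 3.65 to 37.4, *Hba-a1* from 0.812 to 3.47 and *Hbb-bs* from 0.55 to 2.15 FPKM. *Hba-a2*, *Alas2* and *Slc4a1* did not reach the filter, and *Alas2* and *Slc4a1* were at most 0.108 FPKM in any library. The sums in this paragraph also count listed genes that were not tested. Of the other lists, all 4 tested megakaryocyte genes rose (61.2 to 65.5 against 131 to 136 FPKM), as did 5 of 7 of mast cells and basophils (108 to 120.02 against 165 to 175 FPKM). Of 4 tested T and NK cell genes 3 rose, *Gzmb* from 5.04 to 15.9, *Ccl5* from 10.1 to 35.5 and *Trbc2* from 1.22 to 6.13 FPKM on average. *Nkg7*, which makes up most of that list's sum (366 to 378 against 339.8 to 343 FPKM), fell from 353 to 279.6 FPKM. Of 5 tested B and plasma cell genes *Jchain* (30.4 to 64.0 FPKM), *Mzb1* (4.58 to 8.99 FPKM) and *Cd79a* (0.743 to 1.52 FPKM) rose and *Ighm* fell (100.2 to 59.0 FPKM), with sums of 166 to 169 against 159.9 to 165 FPKM. The part of these cell types in the values of the 49 genes was not tested.

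Promoter sequences are shown for the 3 genes with the largest rise and the 3 with the largest fall among the called genes that had a promoter in the RefSeq set (GRCm38.p6), since promoters of G2/M genes are known to share the cell cycle homology region and the CCAAT box. Each window runs 5′ to 3′ along the gene, from 100 bases before to 30 bases after a RefSeq start. Capitals mark TTTGAA and its reverse complement TTCAAA, the variant TTTAAA, and CCAAT and its reverse complement ATTGG. The first 3 are *Pttg1*, *Psrc1* and *Cenpa*, which rose, and the last 3 are *Top2a*, *Racgap1* and *Kif11*, which fell.
Pttg1, chr11:43425952-43426081, minus strand: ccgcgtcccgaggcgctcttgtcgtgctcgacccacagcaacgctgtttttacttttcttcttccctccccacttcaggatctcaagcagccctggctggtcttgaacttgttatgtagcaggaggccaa
Psrc1, chr3:108383738-108383867, plus strand: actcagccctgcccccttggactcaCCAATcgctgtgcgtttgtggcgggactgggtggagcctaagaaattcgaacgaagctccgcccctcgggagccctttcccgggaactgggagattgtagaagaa
Cenpa, chr5:30666786-30666915, plus strand: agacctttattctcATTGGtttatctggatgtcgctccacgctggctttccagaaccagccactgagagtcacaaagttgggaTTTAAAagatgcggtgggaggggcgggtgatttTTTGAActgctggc
Top2a, chr11:99024160-99024289, minus strand: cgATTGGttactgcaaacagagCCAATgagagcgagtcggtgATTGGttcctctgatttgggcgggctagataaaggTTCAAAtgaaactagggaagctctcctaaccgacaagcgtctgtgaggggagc
Racgap1, chr15:99651627-99651756, minus strand: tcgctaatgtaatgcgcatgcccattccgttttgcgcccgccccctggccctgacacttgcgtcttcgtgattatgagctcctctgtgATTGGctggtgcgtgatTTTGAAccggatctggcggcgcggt
Kif11, chr19:37376282-37376411, plus strand: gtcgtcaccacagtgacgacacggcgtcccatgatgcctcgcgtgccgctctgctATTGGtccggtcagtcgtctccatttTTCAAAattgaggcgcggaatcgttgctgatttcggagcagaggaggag

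*Top2a*, *Racgap1*, *Kif11* and *Cenpa* each hold a CCAAT box and a TTTGAA in these windows. The TTTGAA of *Top2a* begins 23 bases before the start, that of *Kif11* 19 bases before, that of *Racgap1* 6 bases after and that of *Cenpa* 17 bases after. *Cenpa* also holds TTTAAA 17 bases before its start, which lies 109 bases inside the 5′ end of the gene in the deposited table. *Psrc1* holds a CCAAT box 75 bases before the start and none of the other motifs. *Pttg1* holds none of the motifs in its window, and its RefSeq start lies 270 bases inside the 5′ end of the gene in the deposited table.

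Promoter windows of 300 bases (250 before to 50 after a RefSeq start) were found for 42 of the 49 genes. A gene counted as holding a motif if any of its windows did, and the 27025 genes had 32851 windows. On either strand, TTTGAA was in 66.7% of the 42, against 20.2% of 27025 genes with a promoter and 14.5% of the 8192 of these that were tested. CCAAT was in 76.2% of the 42, against 41.1% and 43.7%, and TTTAAA in 23.8%, against 14.9% and 10.6%. Of the genes with a promoter, TTTGAA was in 58.3% of the 12 that rose, in all 4 that fell and in 65.4% of the 26 not called. CCAAT was in 91.7% of those that rose, in all 4 of those that fell and in 65.4% of those not called. By role, TTTGAA was in 63.6% of 11 genes of entry and exit, 59.1% of 22 of the spindle and kinetochore and 88.9% of 9 of cytokinesis. *Aurkb*, *Tpx2*, *Cdc25c*, *Ccna2*, *Incenp*, *Dlgap5* and *Kif20a* had no entry.

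The genes of mitotic entry and exit were the most uniform of the 3 roles. All 13 had a positive log2 fold change, also with TPM, quantile or median-of-ratios scaling, with a median of 0.18. Of the 13, 10 lay above control without overlap, or 76.9% beside 25.5% of all genes. Their summed level was 829 to 844 FPKM in control libraries and 940.1 to 975 FPKM in *Myh9*-deficient libraries. The 9 calls became 10 at an unadjusted p under 0.05 and 11 with voom on reads recovered from the FPKM values, and no gene of this role was lower by any of the 3. A share of 69.2% stood beside the 19.9% of all genes that were higher.

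The cyclins that bind CDK1 rose together. *Ccnb1* (mm10, chr13:100778650-100786570), cyclin B1, whose binding switches CDK1 on at mitotic onset, measured 33.7, 34.6 and 34.3 FPKM in the 3 control libraries, against 41.1, 46.0 and 41.8 FPKM in the 3 *Myh9*-deficient libraries. The groups did not overlap, and *Ccnb1* rose by 0.32 on the log2 scale (SE 0.0462, adjusted p = 0.00224). Its pseudogene *Ccnb1-ps*, which could take some of its reads, stood at 1.30 and 1.90 FPKM on average. *Ccnb2* (chr9:70407692-70421547), cyclin B2, measured 98.5, 94.0 and 97.9 FPKM in control libraries, against 109.7, 112 and 113 FPKM in *Myh9*-deficient libraries. Every *Myh9*-deficient library again lay above every control, at 0.20 (SE 0.0277, adjusted p = 0.00191). *Ccna2* (chr3:36564865-36572150), cyclin A2, which acts from S phase into early mitosis, measured 38.1, 36.2 and 37.0 FPKM in control libraries, against 43.2, 41.8 and 41.5 FPKM in *Myh9*-deficient libraries. It rose by 0.18 without overlap (SE 0.032, adjusted p = 0.00533). *Ccna2* shares 863 bases with the antisense gene *Exosc9*, and without strand their reads there cannot be told apart. CDK1 itself (*Cdk1*) was not called, with 29.9, 28.0 and 30.4 FPKM in control libraries, against 32.9, 29.9 and 32.8 FPKM in *Myh9*-deficient libraries (log2 fold change 0.11, SE 0.0496, adjusted p = 0.123). Its groups overlapped through the second *Myh9*-deficient library, without which the adjusted p was 0.0406. *Cdk1* was also called with voom on the recovered reads (adjusted p = 0.015) and with length and GC trends removed (0.0474).

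Of the activators and partners of CDK1, *Cdc25c*, a phosphatase that removes the inhibitory phosphates, measured 10.8, 8.57 and 10.5 FPKM in control libraries, against 15.0, 14.1 and 12.2 FPKM in *Myh9*-deficient libraries. The groups did not overlap, although the spread was the widest among the called genes (log2 fold change 0.43, SE 0.103, adjusted p = 0.0161, and 0.052 without the first *Myh9*-deficient library). The related *Cdc25b* was not called, at 9.18 ± 0.433 FPKM in control libraries, against 9.85 ± 0.597 FPKM in *Myh9*-deficient libraries (mean ± SD of 3 libraries, adjusted p = 0.227). *Cks2* (chr13:51645232-51650660), a small subunit of CDK complexes and the most abundant of the 49 by FPKM, measured 287, 295 and 294 FPKM in control libraries, against 336, 307 and 336 FPKM in *Myh9*-deficient libraries. The groups did not overlap (log2 fold change 0.16, SE 0.04, adjusted p = 0.0207). This call was lost without control library 1 (adjusted p = 0.0701), *Myh9*-deficient library 1 (0.0668) or *Myh9*-deficient library 3 (0.0648), and its sign turned once trends with gene length and GC content were removed (-0.02, adjusted p = 0.588). *Cks2* is the shortest of the 49, at 692 bases. *Cdca3*, which promotes the destruction of the CDK1 inhibitor WEE1, measured 46.4, 46.5 and 46.4 FPKM in control libraries, against 49.4, 48.5 and 51.2 FPKM in *Myh9*-deficient libraries. The rise was small, at 0.096 (SE 0.0288, adjusted p = 0.0364), and the call was lost without any 1 of control libraries 1, 2 or 3 or *Myh9*-deficient libraries 1 or 3 (adjusted p 0.0941, 0.0891, 0.0857, 0.074 and 0.0919).

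Neither of the entry kinases outside the CDK1 complex was called. *Plk1*, the Polo-like kinase, measured 44.6, 42.1 and 44.0 FPKM in control libraries, against 49.4, 47.5 and 45.3 FPKM in *Myh9*-deficient libraries. The groups did not overlap, but the adjusted p was 0.0587 (log2 fold change 0.12, SE 0.0408), and 0.0335 without the third *Myh9*-deficient library. *Plk1* was called with voom (adjusted p = 0.0141), with median-of-ratios scaling (0.042) and with a filter of 5 FPKM on the mean (0.0471). *Aurka*, Aurora A, which matures the centrosomes, measured 36.8 ± 1.76 FPKM in control libraries, against 38.9 ± 1.57 FPKM in *Myh9*-deficient libraries (adjusted p = 0.223), with overlapping groups.

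The 3 genes around the APC/C, which drives exit, all rose. *Pttg1* (chr11:43420250-43426251), securin, the inhibitor of separase that the APC/C destroys at anaphase, measured 13.1, 14.2 and 14.7 FPKM in control libraries, against 21.0, 19.1 and 20.7 FPKM in *Myh9*-deficient libraries. The gap between the groups was several times the spread within either, and the rise of 0.50 was the largest of the 49 (SE 0.0535, adjusted p = 0.000642). *Ube2c* (chr2:164769898-164778822), the ubiquitin-conjugating enzyme that starts chains for the APC/C, measured 70.3, 72.6 and 71.5 FPKM in control libraries, against 92.1, 87.8 and 97.7 FPKM in *Myh9*-deficient libraries. It rose by 0.37 without overlap (SE 0.0416, adjusted p = 0.000832). *Cdc20* (chr4:118432901-118437352), the subunit that activates the APC/C and is the target of the spindle checkpoint, measured 116, 113 and 117 FPKM in control libraries, against 135, 138 and 136 FPKM in *Myh9*-deficient libraries. The rise of 0.24 (SE 0.0247, adjusted p = 0.000541) held in each of 17 alternative fits, as did those of *Pttg1*, *Ube2c*, *Ccna2*, *Ccnb1* and *Ccnb2*.

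**Figure D2:**
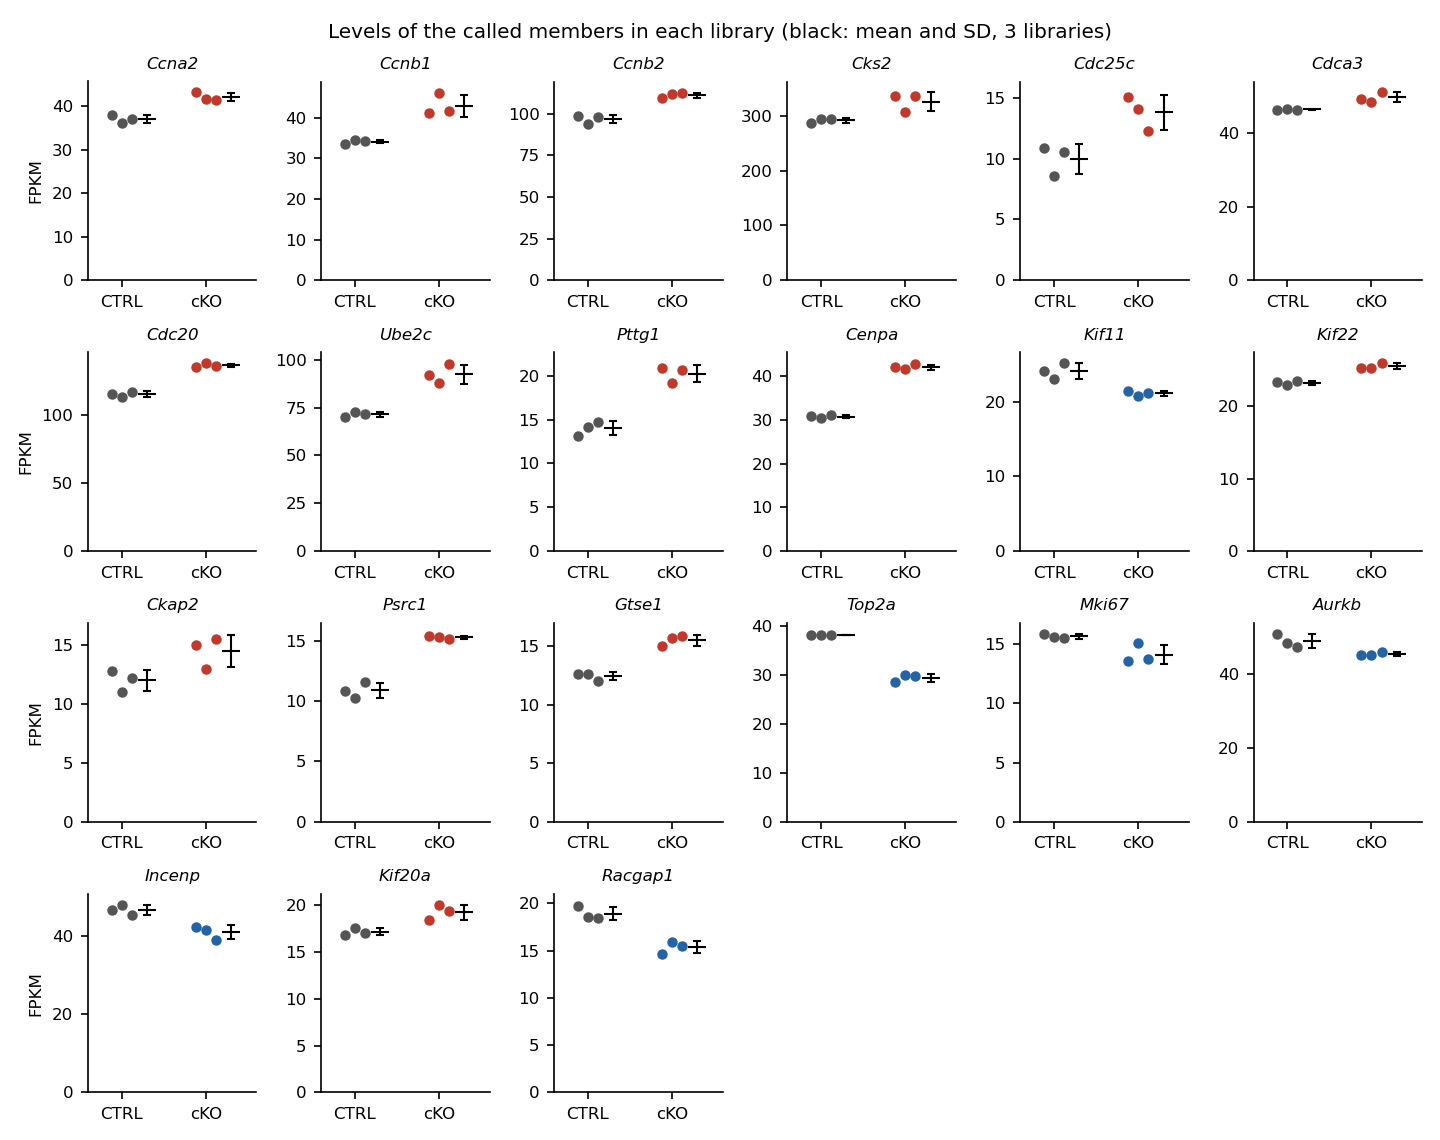
Level in FPKM (y axes, from 0) of the 21 called genes in each control (CTRL, grey) and *Myh9*-deficient (cKO, red where higher, blue where lower) library, with the mean and SD of 3 libraries in black. In each of the 21 panels the lowest library of one genotype lies above the highest of the other.

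Genes of the spindle and kinetochore went both ways. Of 24, 5 rose and 3 fell, with a median log2 fold change of 0.01, close to the -0.01 of all genes tested. Their shares of 20.8% higher and 12.5% lower stood beside 19.9% and 20.6% of all genes. Without overlap, 7 lay above and 5 below control, or 29.2% and 20.8% beside 25.5% and 28.5% of all genes.

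No gene of the spindle checkpoint was called. Of the 4, the kinases *Bub1* and *Ttk*, the scaffold *Bub1b* and *Mad2l1*, which binds and restrains CDC20, 0 were called by limma, 0 had an unadjusted p under 0.05 and 0 were called with voom. Their log2 fold changes lay between -0.06 and 0.03, with standard errors of 0.0349 to 0.0713. *Bub1* measured 11.7 ± 0.837 FPKM in control libraries, against 11.7 ± 0.191 FPKM in *Myh9*-deficient libraries, and *Mad2l1* 14.9 ± 0.362 and 15.3 ± 0.326 FPKM. *Bub1b* measured 31.5 ± 1.32 and 30.2 ± 0.402 FPKM, and *Ttk*, the kinase that starts the checkpoint signal, 5.78 ± 0.272 and 5.70 ± 0.582 FPKM.

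At the kinetochore 1 of 5 genes rose. *Cenpa* (chr5:30666777-30674830), the histone H3 variant that marks centromeres, measured 30.9, 30.4 and 31.0 FPKM in control libraries, against 42.0, 41.6 and 42.7 FPKM in *Myh9*-deficient libraries. Both groups were tight and far apart, and the rise of 0.44 had the lowest adjusted p of the 49 (SE 0.0265, adjusted p = 6.34e-05). The outer kinetochore genes *Ndc80* and *Nuf2*, which form one complex that grips microtubules, differed by -0.06 (adjusted p = 0.501) and 0.04 (adjusted p = 0.586), at 6.62 ± 0.279 and 10.1 ± 0.49 FPKM in control. The kinesin *Cenpe* differed by -0.11 (adjusted p = 0.185) and *Cenpf*, the least abundant of the 49 at 1.66 ± 0.0727 FPKM in control, by -0.02 (adjusted p = 0.804).

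The spindle motors divided. *Kif11* (chr19:37376403-37421859), the kinesin that pushes the spindle poles apart, measured 24.1, 23.1 and 25.2 FPKM in control libraries, against 21.5, 20.8 and 21.2 FPKM in *Myh9*-deficient libraries. The highest *Myh9*-deficient value lay under the lowest control, and *Kif11* fell by 0.18 on the log2 scale (SE 0.0386, adjusted p = 0.0109). *Kif22* (chr7:127027729-127042471), a chromosome-bound kinesin, measured 23.4, 22.9 and 23.4 FPKM in control libraries, against 25.3, 25.3 and 26.0 FPKM in *Myh9*-deficient libraries, a rise of 0.13 without overlap (SE 0.0289, adjusted p = 0.012). The microtubule depolymerase *Kif2c* lay above control without overlap and was not called (11.9 ± 0.49 against 13.1 ± 0.6 FPKM, log2 fold change 0.12, adjusted p = 0.0806). *Kif2c* was called with voom (adjusted p = 0.0261) and with length and GC trends removed (0.0357).

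Among 10 genes of spindle assembly and centrosomes, 3 rose and 0 fell, with 1 lower at an unadjusted p under 0.05 and 0 lower with voom. *Psrc1* (chr3:108383839-108388231), a microtubule-binding protein of the spindle, measured 10.9, 10.3 and 11.6 FPKM in control libraries, against 15.4, 15.3 and 15.1 FPKM in *Myh9*-deficient libraries. Its rise of 0.45 (SE 0.0459, adjusted p = 0.000522) was the second largest of the 49, and the groups lay far apart. *Gtse1* (chr15:85859745-85876573), which stabilises spindle microtubules and restrains p53, measured 12.6, 12.6 and 12.0 FPKM in control libraries, against 15.0, 15.7 and 15.9 FPKM in *Myh9*-deficient libraries. It rose by 0.30 without overlap (SE 0.0381, adjusted p = 0.00136). *Ckap2*, a spindle-associated protein, measured 12.8, 11.0 and 12.2 FPKM in control libraries, against 15.0, 12.9 and 15.5 FPKM in *Myh9*-deficient libraries. These groups nearly touched (log2 fold change 0.25, SE 0.0795, adjusted p = 0.0429), and the call was lost without control libraries 1, 2 or 3 or *Myh9*-deficient libraries 1 or 3 (adjusted p 0.0514, 0.119, 0.0857, 0.119 and 0.121).

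The other 7 genes of spindle assembly were not called. *Tpx2*, *Hmmr*, *Nusap1*, *Tacc3*, *Dlgap5* and *Ckap2l* had log2 fold changes of -0.08 to 0.06, which took in both signs. *Tpx2*, the activator of Aurora A on the spindle, measured 31.3 ± 0.67 FPKM in control libraries, against 30.7 ± 1.14 FPKM in *Myh9*-deficient libraries. *Tacc3*, which links microtubules of the spindle fibres, measured 34.9 ± 0.701 and 36.4 ± 1.28 FPKM. *Dlgap5* and *Ckap2l* had the smallest differences of the 6, at 0.01 each. *Hmmr* lay below control without overlap (9.99 ± 0.269 against 9.53 ± 0.0891 FPKM, adjusted p = 0.224), as did *Nusap1* (25.2 ± 0.518 against 23.8 ± 0.393 FPKM, adjusted p = 0.0823). *Nek2*, a centrosomal kinase, lay above control without overlap (9.75 ± 0.172 against 10.8 ± 0.709 FPKM), with an adjusted p of 0.0757 and of 0.0398 without the second *Myh9*-deficient library. It was called with voom (adjusted p = 0.0251) and with length and GC trends removed (0.035).

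Both genes of chromosome structure fell. *Top2a* (chr11:98992943-99024189), the topoisomerase that untangles sister chromatids, measured 38.0, 38.1 and 38.0 FPKM in control libraries, against 28.5, 29.9 and 29.7 FPKM in *Myh9*-deficient libraries. It fell by 0.36 (SE 0.0295, adjusted p = 0.000213), the largest fall of the 49, and up to 6808 reads in 1 library lay behind these values. *Mki67* (chr7:135689784-135716361), the Ki-67 protein that coats mitotic chromosomes and is widely used to mark cycling cells, measured 15.9, 15.6 and 15.5 FPKM in control libraries, against 13.6, 15.1 and 13.7 FPKM in *Myh9*-deficient libraries. Its second *Myh9*-deficient library came close to the controls (log2 fold change -0.14, SE 0.0456, adjusted p = 0.0464). The *Mki67* call was lost without control libraries 1, 2 or 3 or *Myh9*-deficient libraries 1 or 3 (adjusted p 0.124, 0.105, 0.0898, 0.128 and 0.124), and with length and GC trends removed (-0.05, adjusted p = 0.418).

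Of 12 cytokinesis genes 1 was higher and 3 were lower, or 8.33% and 25% beside 19.9% and 20.6% of all genes. Of the 12, 9 had a negative log2 fold change (8 with quantile scaling or voom, 7 without the second control library), and the median was -0.07. With length and GC trends removed, 7 were positive and 5 negative, with a median of 0.01 and 2 calls each way. The 1 rise became 0 without control library 1 or *Myh9*-deficient library 3, 2 without control library 3 and 3 with voom. Their summed level was 246 to 247 FPKM in control and 239.9 to 245 FPKM in *Myh9*-deficient libraries.

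The chromosomal passenger complex, which corrects attachments at centromeres and then moves to the central spindle, holds *Aurkb*, *Incenp*, *Birc5* and *Cdca8*, and its subunits did not go one way. *Incenp* (chr19:9872297-9899533), the scaffold, measured 46.8, 47.9 and 45.4 FPKM in control libraries, against 42.4, 41.6 and 39.0 FPKM in *Myh9*-deficient libraries. It fell by 0.19 without overlap (SE 0.04, adjusted p = 0.0112). *Aurkb* (chr11:69045647-69051664), the Aurora B kinase, measured 51.0, 48.6 and 47.3 FPKM in control libraries, against 45.3, 45.1 and 46.0 FPKM in *Myh9*-deficient libraries. The groups did not overlap (log2 fold change -0.10, SE 0.0341, adjusted p = 0.0478), and this was the least stable call. It was lost with voom (adjusted p = 0.0727) and without control libraries 1 or 2 or *Myh9*-deficient libraries 1, 2 or 3 (adjusted p 0.127, 0.0965, 0.112, 0.106 and 0.0812).

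The other two subunits lay on the other side and were not called. *Birc5*, survivin, measured 35.4, 38.7 and 41.1 FPKM in control libraries, against 46.3, 40.9 and 43.9 FPKM in *Myh9*-deficient libraries. One *Myh9*-deficient library lay below the highest control (log2 fold change 0.18, SE 0.066, adjusted p = 0.0652), and the gene was called with voom (adjusted p = 0.00227) and without control library 3 (0.0421) or *Myh9*-deficient library 2 (0.0447). *Cdca8*, borealin, measured 32.7, 31.4 and 33.8 FPKM in control libraries, against 36.6, 34.9 and 34.5 FPKM in *Myh9*-deficient libraries. These groups did not overlap (log2 fold change 0.11, SE 0.0388, adjusted p = 0.0572), and *Cdca8* was called with voom (adjusted p = 0.00508), with length and GC trends removed (0.0144) and without control library 3 (0.0493).

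Of 8 genes of the central spindle and furrow, 1 rose and 1 fell. *Racgap1* (chr15:99620496-99651656), the centralspindlin subunit that regulates small GTPases at the furrow, measured 19.8, 18.5 and 18.5 FPKM in control libraries, against 14.6, 15.9 and 15.5 FPKM in *Myh9*-deficient libraries. The groups did not overlap, and it fell by 0.28 (SE 0.0446, adjusted p = 0.00312). *Kif20a*, the kinesin that carries the passenger complex to the central spindle, measured 16.8, 17.6 and 17.0 FPKM in control libraries, against 18.4, 19.996 and 19.3 FPKM in *Myh9*-deficient libraries. It rose by 0.16 without overlap (SE 0.0399, adjusted p = 0.0202), and the call was lost without control libraries 1 or 3 or *Myh9*-deficient libraries 2 or 3 (adjusted p 0.0676, 0.0579, 0.0532 and 0.0565). *Kif20a* shares 2315 bases with the antisense gene *Cdc23*, and reads of this stretch cannot be told apart without strand. In all, 12 of the 49 overlap another gene that was tested, among them *Cdc20* (53 bases with *Elovl1*), *Kif22* (3824 bases with *Gm31749*) and *Top2a* (115 bases with *Gm26394*).

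The remaining 6 genes of the furrow were not called, and all had a negative log2 fold change between -0.08 and -0.02. *Kif23*, the kinesin partner of *Racgap1* in centralspindlin, measured 8.20 ± 0.402 FPKM in control libraries, against 8.06 ± 0.235 FPKM in *Myh9*-deficient libraries. *Ect2*, the exchange factor that activates RhoA, measured 10.6 ± 0.276 and 10.05 ± 0.38 FPKM. *Anln*, anillin, which ties actin, RhoA and myosin II together in the ring, measured 4.45 ± 0.246 and 4.15 ± 0.141 FPKM. For *Ect2* and *Anln* the adjusted p was 0.209 and 0.28. *Prc1*, the microtubule bundler of the midzone, and the kinesins *Kif4* and *Kif20b* also overlapped between the groups, with adjusted p of 0.493, 0.521 and 0.833. *Prc1* had the widest spread of the 49 among *Myh9*-deficient libraries, at 6.92, 8.31 and 8.62 FPKM, against 8.80, 8.35 and 8.05 FPKM in control.

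Partners of one complex did not always keep their ratio. Such pairs were chosen after their values were seen, so their ratios of FPKM are given without a test. *Racgap1* over *Kif23* was 2.44, 2.15 and 2.35 in control and 1.76, 2.003 and 1.96 in *Myh9*-deficient LSKs, lower in each of the 3. *Incenp* over *Birc5* was 1.22 ± 0.111 in control and 0.940 ± 0.0672 in *Myh9*-deficient LSKs, again without overlap. *Ccnb1* over *Cdk1* was 1.16 ± 0.0623 in control and 1.35 ± 0.160 in *Myh9*-deficient LSKs, and here the lowest *Myh9*-deficient ratio (1.251) lay just above the highest control (1.235).

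Further genes of the same processes were listed by role, beside a reference list of S phase genes. Without the S phase genes 143 of 147 passed the filter, of which 21 rose (14.7%) and 29 fell (20.3%), against 19.9% and 20.6% of all genes tested. With them 183 of 187 passed, and 28 rose and 49 fell. None of the 183 passed 2-fold with an unadjusted p under 0.05. Of 72 other mitosis genes, 10 rose and 12 fell (median log2 fold change -0.04). The largest fall among them was in *Pkmyt1*, the MYT1 kinase that inhibits CDK1, from 13.9 ± 0.558 to 9.28 ± 0.465 FPKM (-0.54, SE 0.0492, adjusted p = 0.000336). *Numa1*, which anchors spindle poles, and the checkpoint gene *Kntc1* followed at -0.40 and -0.26. *Melk*, the Aurora A activator *Bora* and the kinetochore gene *Cenpw* had the largest rises, at 0.35, 0.26 and 0.25. With length and GC trends removed, 5 of the 72 were lower in place of 12.

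Of 17 subunits and partners of the APC/C, 4 rose (*Anapc16*, *Anapc10*, *Anapc4* and *Ube2s*, by 0.30, 0.21, 0.21 and 0.14) and 1 fell (*Anapc2*, at -0.15). These were 23.5% and 5.88%, beside 19.9% and 20.6% of all genes tested. Without the third *Myh9*-deficient library 2 fell. Of 30 tested genes of the furrow and of abscission, the final cut between daughter cells, 5 rose (16.7%) and 8 fell (26.7%). Without control library 1 these counts were 3 and 5. *Myh10*, the heavy chain of non-muscle myosin IIB, rose from 1.12 ± 0.0535 to 2.10 ± 0.269 FPKM (0.54, SE 0.0845, adjusted p = 0.00304), and *Pfn1*, profilin, and the myosin light chain *Myl12a* rose by 0.30 and 0.23. *Pdcd6ip*, which recruits the abscission machinery, *Arhgap11a* and the formin *Diaph3* had the largest falls, at -0.27, -0.26 and -0.22.

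Of 24 tested regulators of G2/M transcription and the G2 checkpoint, 2 rose and 8 fell, or 8.33% and 33.3% beside 19.9% and 20.6% of all genes. The 2 rises became 1 without control libraries 2 or 3 or *Myh9*-deficient library 2. *Foxm1*, the transcription factor that drives many of the 49 genes, fell from 8.39 ± 0.164 to 6.55 ± 0.248 FPKM (-0.31, SE 0.0425, adjusted p = 0.00172). *Cdkn1a*, the CDK inhibitor p21, and *E2f2* had larger falls, at -0.55 and -0.49, while *E2f4* and *Lin37*, parts of the DREAM complex that represses these promoters in resting cells, rose by 0.27 and 0.15. Of 40 genes of S phase and DNA replication, 7 rose (4 without control library 2) and 20 fell, a share of 50% lower beside the 20.6% of all genes, with a median of -0.14. *Ung*, *Lig1* and *Mcm6* had the largest falls, at -0.49, -0.39 and -0.34, and *Ccne1*, *Dut* and *Rrm2* the largest rises, at 0.35, 0.24 and 0.19.

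**Figure D3:**
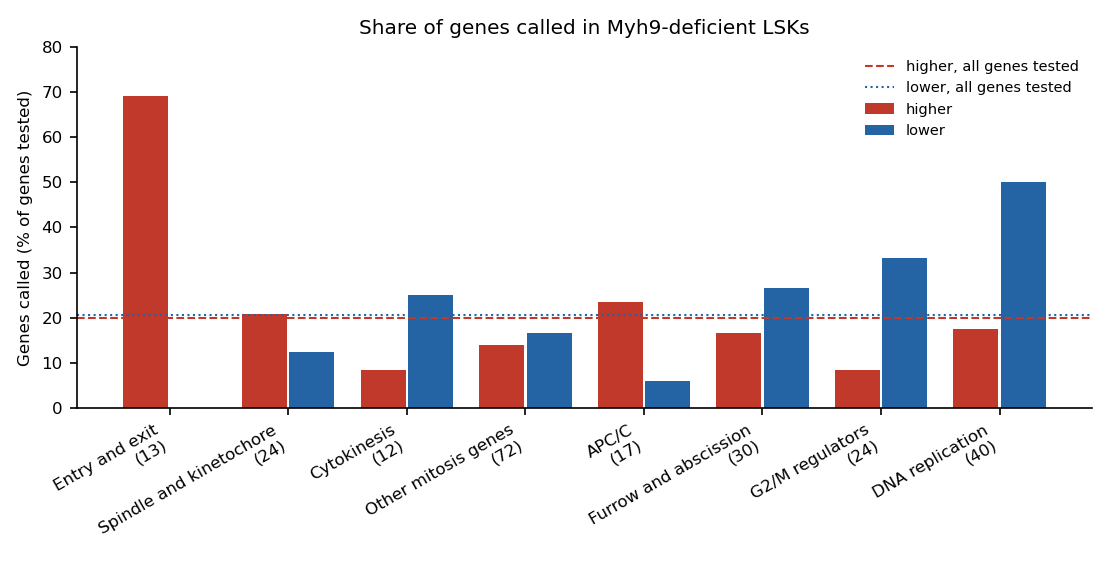
Share of genes called higher (red) and lower (blue) in *Myh9*-deficient LSKs, as a percentage of the genes tested in each list (number in brackets), with the shares over all genes tested as dashed and dotted lines. Entry and exit has 69.2% higher and 0 lower, and DNA replication has 50% lower.

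The genes that rose were mostly short. Spearman's rank correlation across the 49 genes was -0.60 with gene length and 0.40 with GC content, a description over genes that share the same 6 libraries. Among the 25 genes of at most 4363 bases, 13 were higher and 2 lower, and among the 24 longer genes 2 were higher and 4 lower. Role and length overlapped, since 12 of the 13 genes of entry and exit were among the shorter ones. Over all genes tested, those higher had a median length of 2691 bases and those lower 4680.5 bases.

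With each library's trends in length and GC content removed before the test, 17 of the 49 were higher and 4 lower, and 13 and 4 of these had the same call as before. Entry and exit then had 8 higher and 0 lower, with 12 of 13 positive and a median of 0.16. The rank correlation with length was -0.37 after removal. The calls of *Pttg1*, *Ube2c*, *Cdc20*, *Ccnb1*, *Ccnb2*, *Ccna2*, *Cenpa*, *Psrc1*, *Gtse1*, *Kif22*, *Kif11*, *Top2a*, *Incenp* and *Racgap1* held under this and each of the other 16 alternative fits.

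**Figure D4:**
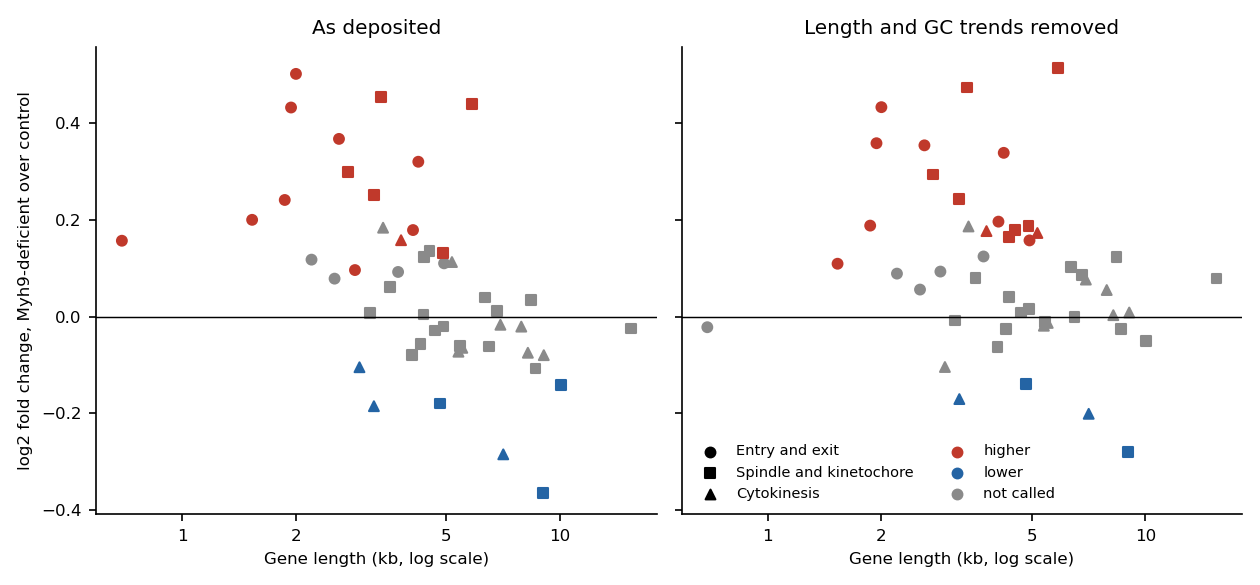
Log2 fold change of the 49 genes (y axes) against gene length in kilobases (x axes, log scale) as deposited (left) and with length and GC trends removed (right), with roles as symbols and calls as colours. On the left the rank correlation is -0.60 and the rises crowd among short genes, and on the right it is -0.37.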

How the data were processed

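LSK RNA-seq was analysed in 6 libraries, 3 per genotype, grouped by the sample labels. The authors deposited FPKM for 54532 genes with each gene's length. The submitters' processing notes name HISAT2 2.0.5 and mm10, and the counting program is not given in the sources used here. FPKM times length gave whole reads for 100% of values (within 0.05 reads), 17571544 to 19894562 per library. Reads carry no molecular identifiers, so precision from their number covers counting error only. GC content came from GENCODE M21 transcripts.

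Testing covered the 11552 genes whose mean reached 1 FPKM, on log2(FPKM + 1) with limma 3.58.1 (lmFit, eBayes with trend, R 4.3.3), two-sided, Benjamini-Hochberg adjusted, called at 0.05. On simulated data in which 11287 of 11484 genes were unchanged, this test called 24% of 1.25-fold changes, 94% of 1.5-fold changes and 0.0797% of unchanged genes. In the real data 19.9% of genes were called higher and 20.6% lower. With so few changed genes the adjusted cutoff was stricter in the simulation, so its shares do not carry over to these data. Alternatives were a pseudocount of 0.1, no filter, a mean of at least 5 FPKM, median-of-ratios, quantile and TPM scaling, other variance models, a replicate block, leaving out each library, voom on recovered reads, removal of length and GC trends, and other call rules.

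The 49 genes and all lists were chosen with earlier results of these data known, and some genes of the cell type lists are not reported here. Every called gene is given in full, and of other lists the 3 largest called changes in each direction. Python 3.11.15, pandas 2.3.3, numpy 2.4.6, scipy 1.17.1 and matplotlib 3.10.9 were used.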

Additional observations from a re-analysis of the deposited data

How the results depend on the processing

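More than 2-fold with an unadjusted p under 0.05 left 0 genes of the 49, of each role and of the 5 other lists. By this rule of no overlap 25.5% of all genes were higher and 28.5% lower. With no overlap as the rule, 5 spindle and kinetochore genes (20.8%) were lower in place of 3, and 2 cytokinesis genes (16.7%) higher in place of 1. The latter count was also 2 with a mean of at least 5 FPKM, 2 with median-of-ratios scaling, 3 with voom and 2 with length and GC trends removed. Leaving out each library in turn gave 0 to 2 for it, with 0 without control library 1 or *Myh9*-deficient library 3 and 2 without control library 3. The same gave 11 to 17 higher and 4 to 5 lower of the 49, and 6 to 10 higher in entry and exit. *Cks2* turned to -0.022 with length and GC trends removed. Scaling moved the median of all genes by at most 0.02.

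With the replicate number as a block, 15 of the 49 were higher and 4 lower (2063 and 2044 of all genes). Same-numbered libraries did not deviate together (correlations of -0.0046, -0.011 and -0.026), and no library correlated best with its own number. The labels do not state whether same-numbered samples were paired, and 3 libraries a group cannot settle it. *Cdca3*, *Mki67* and *Aurkb* lost and *Cdk1* gained a call under the block (adjusted p 0.0726, 0.0741, 0.0858 and 0.0492). The simulated share of 24% for 1.25-fold changes came from data with 11287 of 11484 genes unchanged. It is not the power of the test on these data.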
